A study of Mus musculus with 22 samples.

Results

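The 10 Mb on each side of Esr2 on mouse chromosome 12 were examined in primary motor cortex of mice that lack estrogen receptor beta. Esr2 encodes this receptor, and the window held 1195 annotated features, chosen by position alone (chromosome 12, 67246443 to 87278248, mm9). A feature is a stretch in which RNA 5′ ends were counted, with a strand and a class such as upstream, 5′ UTR, CDS, 3′ UTR, intron or unannotated. Of these features, 1179 were in the count table, out of 112366 endogenous features in all, and 16 were not. A single gene symbol was given to 1021 of them, 150 were unannotated and 8 had several symbols. They made up 166 of the 15297 genes of the series. Ttll5 also had features beyond the window's edge.

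BERKO is the submitters' name for mice deficient in estrogen receptor beta, and the other group is WT. All mice were C57BL/6 males of 16 to 20 weeks on standard chow, with no other treatment in the labels. The data came from 5 BERKO mice (replicates 2 to 6) and 6 WT mice, each with a right and a left needle biopsy of M1, which makes 22 biopsies. The labels count 6 BERKO mice at the start, of which 1 was dropped as an outlier, without the measure behind that choice. The disrupted part of Esr2, the strain in which the allele was made and any backcrossing are not stated in the labels. The counts came from STRT sequencing, which tags the 5′ end of each RNA molecule during reverse transcription, so most reads of a gene lie at its start.

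Estrogen receptor beta is a nuclear receptor that binds estradiol, dimerizes and regulates genes through estrogen response elements or through other DNA-bound factors. In the brain it is known from interneurons, glia and hypothalamic neurons, at levels well below those of common neuronal transcripts. The genes around it have varied functions and include parts of the small nuclear RNA, ribosome and translation machinery (Snapc1, Fcf1, Eif2s1), enzymes (Dhrs7, Fntb, Mthfd1), synaptic and scaffold proteins (Mdga2, Gphn, Akap5) and membrane traffic proteins (Rab15, Vti1b, Atp6v1d).

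Promoter sequences are shown for the 4 window genes of smallest p that have an entry in the RefSeq promoter table, and for Esr2 itself. The counted features were not tied to these annotated starts by coordinate. The leading features of Snapc1 and Fntb are classed as upstream, and that of Mdga2 holds 25.06% of its reads. The table is on GRCm38.p6, not on the build of the counts, and 136 of the 166 window genes have an entry there. Each sequence runs from 250 bases before to 30 bases after the annotated start, 5′ to 3′ on the gene's strand. They lie at chr12:73964247-73964526 (plus strand) for Snapc1, chr12:72664799-72665078 (minus) for Dhrs7, chr12:67222520-67222799 (minus) for Mdga2, chr12:76837217-76837496 (plus) for Fntb and chr12:76177230-76177509 (minus) for Esr2. Capitals mark any match, on either strand, to 5 motifs: the full estrogen response element (GGTCA and TGACC with 3 bases between), its half-site AGGTCA, whose last 5 letters overlap the full element, the TATA box TATAAA, the GC box GGGCGG and the CCAAT box.
Snapc1: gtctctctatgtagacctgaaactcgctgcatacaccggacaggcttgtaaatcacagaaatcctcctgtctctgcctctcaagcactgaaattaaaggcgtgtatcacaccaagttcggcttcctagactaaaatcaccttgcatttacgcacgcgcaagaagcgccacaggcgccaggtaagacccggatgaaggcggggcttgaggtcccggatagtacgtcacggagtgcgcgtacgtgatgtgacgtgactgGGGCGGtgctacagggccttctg
Dhrs7: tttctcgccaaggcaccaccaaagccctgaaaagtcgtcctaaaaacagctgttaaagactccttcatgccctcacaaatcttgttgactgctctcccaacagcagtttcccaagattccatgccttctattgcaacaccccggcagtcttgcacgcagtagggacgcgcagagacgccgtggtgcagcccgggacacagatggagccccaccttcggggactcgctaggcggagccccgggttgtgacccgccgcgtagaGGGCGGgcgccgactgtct
Mdga2: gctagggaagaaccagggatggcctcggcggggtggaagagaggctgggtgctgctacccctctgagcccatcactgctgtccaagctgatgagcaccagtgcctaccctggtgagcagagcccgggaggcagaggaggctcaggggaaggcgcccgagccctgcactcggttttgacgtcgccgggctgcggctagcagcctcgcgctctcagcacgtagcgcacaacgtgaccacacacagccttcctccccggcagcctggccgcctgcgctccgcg
Fntb: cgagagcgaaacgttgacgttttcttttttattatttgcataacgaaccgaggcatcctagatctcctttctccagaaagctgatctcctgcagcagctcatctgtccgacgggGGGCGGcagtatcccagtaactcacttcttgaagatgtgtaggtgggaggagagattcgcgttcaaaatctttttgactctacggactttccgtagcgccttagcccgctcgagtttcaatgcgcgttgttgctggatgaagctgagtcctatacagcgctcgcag
Esr2: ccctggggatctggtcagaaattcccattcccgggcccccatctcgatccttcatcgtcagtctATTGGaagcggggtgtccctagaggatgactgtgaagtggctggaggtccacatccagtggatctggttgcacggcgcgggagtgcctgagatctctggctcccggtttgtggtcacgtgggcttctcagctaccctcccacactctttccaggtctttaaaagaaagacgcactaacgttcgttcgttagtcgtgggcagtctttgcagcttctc

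The capitals in Snapc1, Dhrs7 and Fntb are GC boxes, and those in Esr2 are a CCAAT box on the opposite strand. Mdga2 held none of the 5 motifs in these letters. Over all 32851 promoters of this length, 34.7% held a GC box, 36.1% a CCAAT box, 13.1% a TATA box, 15.3% a half-site and 0.067% a full response element. Among the 168 promoters of window genes the shares were 54.8%, 41.7%, 7.14%, 13.7% and 0.0%. A match is a match of letters and not a site of binding. The 5 promoters ranged in G and C content from 50.0% (Fntb) to 67.9% (Mdga2).

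Depth was 1406440 ± 250443 reads per BERKO mouse and 2204529 ± 570075 per WT mouse (SD, n = 5 and 6). The floors given for a count of 0 cover counting error only, and reads after PCR are not independent molecules. The right and left biopsies of WT replicate 1 and the left biopsy of WT replicate 2 stood apart from the other 19 libraries on the first principal component (-49.13, -61.64 and -57.42, against -15.18 to 30.07). The left biopsy of BERKO replicate 5 had 1 lane and the others 3. The column names carry a letter, read here as the well row of the plate, which was D to F for BERKO biopsies and A to C for WT biopsies, so plate row and genotype cannot be told apart. Summed markers of cell types differed too: excitatory neuron markers ran from 1724 to 2528 CPM (counts scaled by TMM to a common library size) in BERKO mice and 1145 to 1972 in WT mice, with all 8 genes measured. Microglial markers (6 of 6 measured) ran from 1032 to 1282 CPM in BERKO and 580.2 to 1019 CPM in WT mice, and endothelial markers (5 of 5) from 202.7 to 298.0 CPM in BERKO and 92.2 to 230.5 CPM in WT mice. No marker measured in these lists was at 0. Astrocyte and oligodendrocyte markers overlapped widely (4572 to 6212 CPM in BERKO and 3572 to 6279 in WT mice for astrocytes). The part of cell makeup in the results was not tested, and in tissue biopsies fewer cells of a type and less RNA per cell cannot be told apart.

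Esr2 itself had almost no reads in either genotype. Its CDS feature at 77246443 held 6 reads of BERKO replicate 3 and 4 reads of BERKO replicate 5, and the other 3 BERKO mice had 0. Its upstream feature at 77278248 held 3 reads of WT replicate 1, and the other 5 WT mice had 0. The 5′ UTR feature at 77278038 had no read in any mouse. A count of 0 allows up to 2.32 CPM in the shallowest of these BERKO mice and 2.36 CPM in the shallowest of these WT mice. These counts were too few to check the genotype labels, and the place of the reads checks nothing while the disrupted part is not stated.

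The comparison of BERKO with WT mice asked which genes next to the missing receptor differ in the motor cortex. No window gene passed the threshold: 0 of the 96 tested had an adjusted p under 0.05 in edgeR's quasi-likelihood test with Benjamini-Hochberg adjustment over all genes, where 0.0776% of all 9025 tested genes did. DESeq2 called 5 of the 78 window genes to which it gave an adjusted p (6.41%), beside 0.446% of all such genes, and limma-voom called 0 of 96, beside 0.0111% of all. At an unadjusted p under 0.05 there were 13 of 96 window genes, or 13.5%, beside 9.92% of all genes. Of these, 8 were lower in BERKO (8.33%, beside 4.64% of all genes) and 5 were higher (5.21%, beside 5.27%). The lower ones were Snapc1, Dhrs7, Mdga2, Fntb, Fcf1, Erh, Eif2s1 and 3110056K07Rik, and the higher ones Dbpht2, Sptb, Ppp2r5e, Rab15 and Rtn1. Fntb, which DESeq2 also called, was kept by the expression filter through the WT mice, with 1 of 5 BERKO mice at its limit. Dbpht2 and Ppp2r5e reached that limit in 5 of 5 BERKO mice, against 3 of 6 and 2 of 6 WT mice. Mdga2 reached it in 3 of 5 BERKO and 6 of 6 WT mice. These counts therefore include genes whose testing depended, wholly or in part, on the genotype in which they are high. The median log2 change was -0.12 over the window genes and -0.0069 over all genes, with 59 window genes negative and 37 positive, against 4583 and 4442 of all genes. Taken per mouse, the median log2 difference of the window genes from the WT mean ran from -0.227 to -0.019 in BERKO mice. It ran from -0.116 to 0.223 in WT mice, so the groups overlapped, with a pooled SD of 0.10 between mice. The directions over genes also depended on the scaling. Under spike-in scaling, which put the median of all genes at 0.19, 39 window genes were negative and 57 positive, against 2826 and 6199 of all genes. At an unadjusted p under 0.05, 4 window genes were then lower in BERKO (4.17%, beside 1.07% of all genes) and 10 were higher (10.4%, beside 11.4%).

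**Figure D1:**
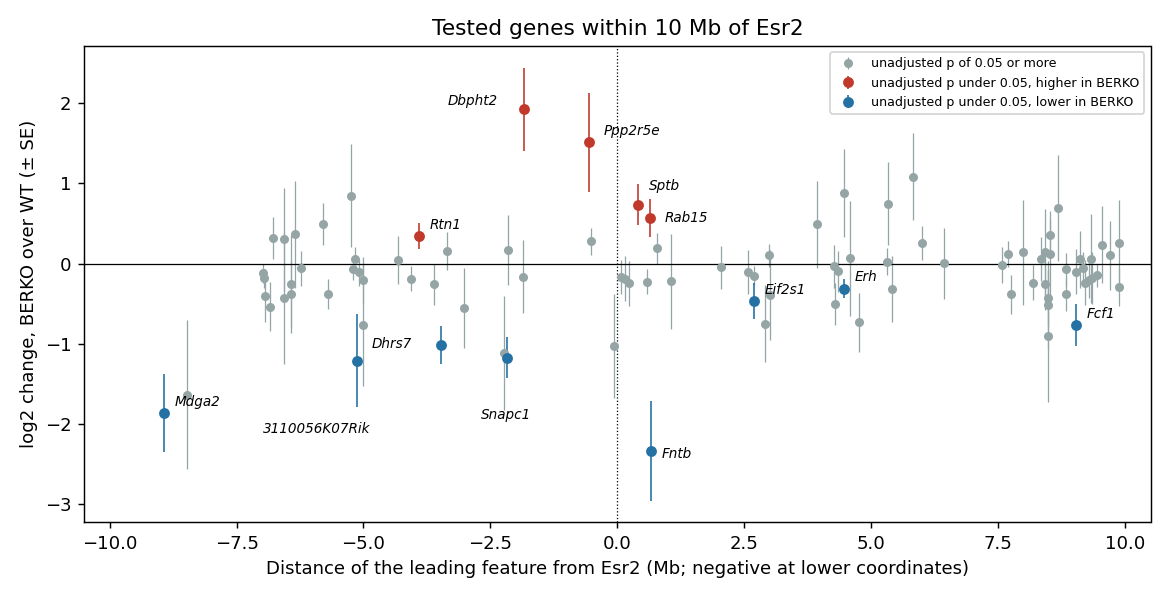
The log2 change of each of the 96 tested window genes (BERKO over WT, ± SE, vertical axis) is plotted against the distance of its leading feature from Esr2 in Mb (horizontal axis). The largest differences in either direction, Fntb at -2.33 and Dbpht2 at 1.93, lie 0.66 Mb and 1.85 Mb from Esr2, and Mdga2 at -1.86 lies 8.92 Mb away.

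The genes with small p lay mostly in the inner part of the window. Within 5 Mb of Esr2, 10 of 39 tested genes (25.6%) had an unadjusted p under 0.05, 5 higher and 5 lower. Between 5 and 10 Mb there were 3 of 57 (5.26%), all lower: Mdga2, 3110056K07Rik and Fcf1. Without the 3 WT libraries that stood apart, an alternative added after the data were seen, the counts were 8 of 38 and 4 of 51, beside 7.93% of all 8436 genes tested there. On the rest of chromosome 12, 23 of 225 tested genes had such a p, with a median log2 change of 0.019. At an unadjusted p under 0.001, a limit chosen after the values were seen, there were 5 window genes (5.21%), Snapc1, Dhrs7, Mdga2, Fntb and Dbpht2, beside 0.51% of all genes. These were 5 of the 46 such genes anywhere (10.9%), while the window holds 1.06% of all genes tested. The count was again 5 without the 3 WT libraries, beside 0.403% of all genes. With all libraries, Fntb was tested through the WT mice: 1 of 5 BERKO mice reached the expression filter's limit, against 6 of 6 WT mice. Dbpht2 and Ppp2r5e reached it in 5 of 5 BERKO mice, against 3 of 6 and 2 of 6 WT mice. Mdga2 reached it in 3 of 5 BERKO and 6 of 6 WT mice. The places of Fntb, Dbpht2 and Mdga2 among these 5 genes therefore depended, wholly or in part, on the genotype in which they are high. So did those of Fntb, Dbpht2 and Ppp2r5e among the 10 within 5 Mb. The shares are given with these genes included. The split by distance was not tested.

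Snapc1, a subunit of the complex that starts transcription of small nuclear RNA genes, had the smallest p in the window and ranked 11 among all genes. Its levels were 16.2, 42.6, 34.9, 43.6 and 34.2 CPM in BERKO replicates 2 to 6, against 92.2, 66.8, 84.4, 48.9, 94.3 and 74.8 CPM in WT replicates 1 to 6. Every BERKO mouse lay below every WT mouse. The mean was 34.3 ± 10.99 CPM in BERKO and 76.9 ± 17.2 CPM in WT mice (SD, n = 5 and 6), a log2 change of -1.17 ± 0.26 (SE) with an adjusted p of 0.0778 in edgeR. It passed in 4 of 23 alternatives, among them DESeq2 (adjusted p = 0.00902) and the fit without WT replicate 4, its lowest WT mouse (0.0369); the range over the alternatives was 0.00902 to 0.220. Of its reads, 97.39% came from an upstream feature at 75065500 on the plus strand, 2.18 Mb from Esr2. A stretch of 298 bases is identical in the overlapping gene Gm49321, so the assignment to Snapc1 is uncertain.

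Dhrs7, a short-chain dehydrogenase/reductase of the endoplasmic reticulum, had 48.5, 51.2, 74.3, 51.0 and 65.9 CPM in BERKO replicates 2 to 6. The WT mice had 51.1, 128.9, 127.4, 169.8, 106.5 and 122.7 CPM in replicates 1 to 6. WT replicate 1, both of whose libraries stood apart, lay among the BERKO mice, and the other 5 WT mice lay above all of them. The log2 change was -1.01 ± 0.24 with an adjusted p of 0.126 in edgeR. Dhrs7 passed in 5 of 23 alternatives: without WT replicate 1 (log2 change -1.17, adjusted p = 0.00356), without the 3 WT libraries apart (-1.25, 0.00201), with mouse numbers as a block, in DESeq2 and with no filter on low counts, over a range of adjusted p of 0.00201 to 0.347. WT replicate 1 was absent from both fits that left libraries out, and in the block it had no BERKO mouse of its number. These passes are therefore not independent of each other. The 5′ UTR feature of Dhrs7 at 73765789 on the minus strand held 94.75% of its reads. A stretch of 81 bases is 97.531% identical to Gm44428 elsewhere in the genome, so its counts are uncertain to that extent.

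Mdga2, a membrane-anchored immunoglobulin protein that restrains synapse formation by binding neuroligins, was spread thinly over 16 features, the leading one with 25.06% of the reads. It had 6.93, 8.66, 5.42, 1.06 and 12.0 CPM in BERKO replicates 2 to 6 and 20.4, 33.97, 51.6, 20.9, 17.7 and 8.66 CPM in WT replicates 1 to 6. WT replicate 6 lay within the BERKO values and the other WT mice above them. The expression filter's limit was reached in 3 of 5 BERKO and 6 of 6 WT mice. The log2 change was -1.86 ± 0.49 with an adjusted p of 0.179 in edgeR, and DESeq2 alone of 23 alternatives called it (0.0432, range 0.0432 to 0.421). Stretches of at least 80 bases at 95% identity or more occur in 66 genes at other loci, so its reads are uncertain. Mdga2 is also the outermost tested gene on its side, at 8.92 Mb; the nearest tested gene beyond the window there, Fkbp3 at 11.1 Mb, averaged 339.9 CPM in BERKO and 359.7 CPM in WT mice. At the other edge Ttll5, inside at 9.89 Mb, averaged 20.8 CPM in BERKO and 16.7 CPM in WT mice, and Tgfb3, outside at 10.1 Mb, 6.65 CPM in BERKO and 8.97 CPM in WT mice.

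Fntb, the beta subunit of protein farnesyltransferase, which attaches a lipid anchor to Ras-family and lamin proteins, lies 0.66 Mb from Esr2. It had 10.8, 1.44, 0.774, 4.25 and 1.90 CPM in BERKO replicates 2 to 6, against 6.44, 17.6, 27.2, 9.34, 37.6 and 17.3 CPM in WT replicates 1 to 6. BERKO replicate 2 lay above 2 of the WT mice and the other 4 BERKO mice below all of them. The log2 change was -2.33 ± 0.62, the largest decrease among the tested window genes, with an adjusted p of 0.179 in edgeR, and DESeq2 alone of 22 alternatives called it (0.0418, range 0.0418 to 0.442). Without BERKO replicate 2 the log2 change was -3.23. The expression filter kept Fntb through the WT mice, with 1 of 5 BERKO mice at its limit of 6.15 CPM, so its place among the tested genes depended on the genotype in which it is high; Bbof1, a further window gene, entered in the same way. Fntb overlaps Churc1, with 249 bases in common, and their reads cannot be fully told apart. Churc1, a zinc-binding protein, averaged 164.5 ± 34.1 CPM in BERKO and 192.3 ± 19.4 CPM in WT mice, a log2 change of -0.22 with an unadjusted p of 0.167, and 231 genes at other loci hold near-identical stretches of it, so its counts are uncertain.

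Dbpht2 was the window gene with the largest difference in the other direction. It had 20.8, 15.2, 31.8, 24.4 and 41.2 CPM in BERKO replicates 2 to 6, against 2.50, 8.79, 3.14, 1.099, 12.7 and 14.95 CPM in WT replicates 1 to 6. Every BERKO mouse lay above every WT mouse, with BERKO replicate 3 and WT replicate 6 close together. The expression filter's limit was reached in 5 of 5 BERKO and 3 of 6 WT mice, so the testing of Dbpht2 depended on the BERKO mice. The log2 change was 1.93 ± 0.52 with an adjusted p of 0.179 in edgeR. It passed in DESeq2 (0.0497) and under spike-in scaling (0.0392) of 23 alternatives, whose adjusted p ranged from 0.0392 to 0.387. Its reads came to 94.55% from a 5′ UTR feature at 75399462 on the plus strand, 1.85 Mb from Esr2. In that feature alone the groups overlapped, with BERKO replicate 3 at 15.2 CPM and WT replicate 6 at 15.5 CPM.

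**Figure D2:**
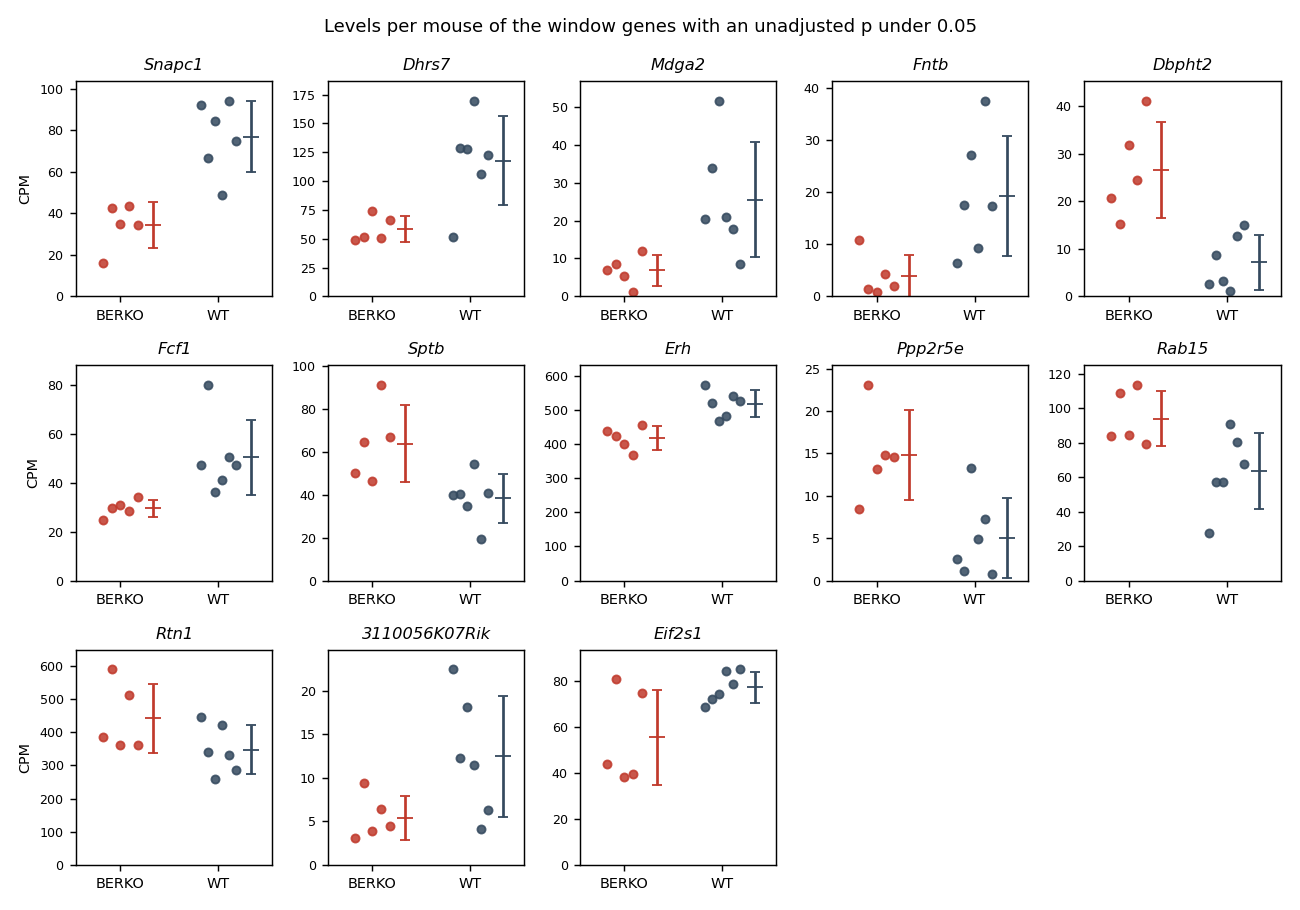
Levels in CPM (vertical axes, from 0) are shown per mouse for the 13 window genes with an unadjusted p under 0.05, BERKO left and WT right, with the mean ± SD beside the points (bars are cut at 0). The groups do not overlap for Snapc1, Dbpht2, Fcf1 and Erh, and a single WT mouse of Dhrs7, at 51.1 CPM, lies among the BERKO mice.

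The groups of mice did not overlap for 4 of the 96 tested genes (4.17%), beside 1.33% of all genes. Without the 3 WT libraries it was 5 of the 89 tested, beside 1.46% of all genes. Besides Snapc1 and Dbpht2 these were Fcf1 and Erh. The testing of Dbpht2 depended on the BERKO mice, in which it is high. Fcf1, which processes the precursor of small-subunit ribosomal RNA, had 24.6, 29.6, 30.97, 28.7 and 34.2 CPM in BERKO replicates 2 to 6 and 47.6, 80.2, 36.3, 41.2, 50.8 and 47.2 CPM in WT replicates 1 to 6. The BERKO mice lay close together and WT replicate 2 stood high. Its log2 change was -0.76 ± 0.26 with an adjusted p of 0.326 in edgeR, and 97.99% identity over 597 bases to Gm11221 makes its counts uncertain. Erh, a small conserved nuclear protein of mRNA splicing complexes, was the most abundant of the 8 lower genes, with 438.9, 424.9, 401.1, 368.7 and 457.6 CPM in BERKO replicates 2 to 6. The WT mice had 573.8, 519.5, 467.6, 483.6, 541.3 and 527.2 CPM, a narrow spread above all BERKO mice. Its log2 change was -0.31 ± 0.12 with an adjusted p of 0.388 in edgeR, and 4 genes at other loci hold near-identical stretches, the longest 735 bases of Gm10131 at 99.864%. The near-identical stretches make the Erh counts uncertain. Erh also shares 459 bases with the overlapping gene Slc39a9, whose leading feature lies on the other strand. How far strand keeps their reads apart was not tested.

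The remaining lower genes were Eif2s1 and 3110056K07Rik. Eif2s1, the alpha subunit of translation initiation factor eIF2, had 43.9, 80.8, 37.9, 39.3 and 74.8 CPM in BERKO replicates 2 to 6, and 68.6 to 84.98 CPM in WT mice. BERKO replicates 3 and 6 lay within the WT values and the other 3 below them. Its log2 change was -0.47 ± 0.23 (unadjusted p = 0.0480, edgeR), and 3 genes at other loci hold near-identical stretches. The noncoding 3110056K07Rik had 3.08 to 9.38 CPM in BERKO and 4.08 to 22.5 CPM in WT mice, with overlapping groups and a log2 change of -1.21 ± 0.58 (unadjusted p = 0.0468, edgeR).

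Of the higher genes, Sptb, the beta chain of spectrin in the membrane skeleton, lies 0.40 Mb from Esr2. It had 50.0, 64.9, 46.5, 91.4 and 67.2 CPM in BERKO replicates 2 to 6 and 40.0, 40.4, 34.9, 54.4, 19.5 and 40.9 CPM in WT replicates 1 to 6. WT replicate 4 lay above 2 BERKO mice and the other WT mice below all of them. The log2 change was 0.74 ± 0.26 with an adjusted p of 0.330 in edgeR. Its largest feature, with 43.65% of the reads, was in the 3′ UTR at 77682026 (30.4 ± 7.88 CPM in BERKO and 15.6 ± 4.34 CPM in WT mice), and a second 3′ UTR feature at 77682917 differed in the same direction (20.4 ± 9.21 CPM in BERKO and 9.498 ± 4.79 CPM in WT mice).

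Ppp2r5e, a regulatory subunit of protein phosphatase 2A, had 8.47, 23.1, 13.2, 14.9 and 14.6 CPM in BERKO replicates 2 to 6 and 2.50, 1.17, 13.3, 4.95, 7.25 and 0.787 CPM in WT replicates 1 to 6. WT replicate 3 alone of the WT mice reached the BERKO values. Ppp2r5e reached the expression filter's limit in 5 of 5 BERKO and 2 of 6 WT mice, so its testing depended on the BERKO mice. Its log2 change was 1.51 ± 0.62 (unadjusted p = 0.0208, adjusted p = 0.422, edgeR), at levels near those of a few reads per mouse in WT mice. Rab15, a small GTPase of endocytic recycling in neurons, had 83.9, 108.9, 84.4, 113.7 and 79.2 CPM in BERKO replicates 2 to 6 and 27.9 to 90.7 CPM in WT mice, with WT replicates 4 and 5 inside the BERKO range and the other 4 WT mice below it. Its log2 change was 0.57 ± 0.24 (unadjusted p = 0.0236, edgeR). Rtn1, a reticulon that shapes neuronal endoplasmic reticulum, had 360.6 to 590.9 CPM in BERKO and 258.9 to 447.6 CPM in WT mice, which overlap, with a log2 change of 0.34 ± 0.16 (unadjusted p = 0.0427, edgeR).

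The nearest tested genes showed no shared direction. At lower coordinates, Syne2, the nuclear envelope protein nesprin-2, lies 0.06 Mb away and averaged 6.02 ± 3.41 CPM in BERKO and 12.0 ± 7.03 CPM in WT mice (log2 change -1.02, unadjusted p = 0.127). Wdr89, at 0.51 Mb, averaged 185.4 ± 35.5 CPM in BERKO and 153.1 ± 29.0 CPM in WT mice (0.28, unadjusted p = 0.104). Of the Wdr89 reads, 97.30% lay in a 3′ UTR feature, and a stretch of 447 bases of Wdr89 is 99.329% identical to Rplp2, so its counts are uncertain. 1700086L19Rik and Syt16, 1.86 and 2.15 Mb away, had log2 changes of -0.16 and 0.17. At higher coordinates, Mthfd1, a folate-cycle enzyme 0.08 Mb away, averaged 65.8 ± 18.8 CPM in BERKO and 73.9 ± 9.30 CPM in WT mice (-0.17). Akap5, a scaffold of protein kinase A and calcineurin at synapses, averaged 50.1 ± 28.3 CPM in BERKO and 56.8 ± 13.6 CPM in WT mice (-0.19), and Hspa2, a heat shock protein of the HSPA family, 45.5 ± 17.1 CPM in BERKO and 53.5 ± 15.99 CPM in WT mice (-0.24). These last genes overlapped between the groups. Under spike-in scaling the signs of Mthfd1, Akap5 and 1700086L19Rik turned.

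By level, a few genes carried a large share of the window. Rps29, a protein of the small ribosomal subunit, held 24.14% of the summed window CPM in BERKO and 24.62% in WT mice. It averaged 2299 ± 169.1 CPM in BERKO and 2502 ± 344.6 CPM in WT mice (log2 change -0.12, unadjusted p = 0.289, edgeR), and 7 genes at other loci hold near-identical stretches. Atp6v1d, a subunit of the proton pump of lysosomes and synaptic vesicles, averaged 733.9 ± 77.2 CPM in BERKO and 815.1 ± 88.7 CPM in WT mice (-0.15). Rpl36al, a protein of the large ribosomal subunit with a near-identical copy, averaged 385.9 ± 8.70 CPM in BERKO and 438.2 ± 46.2 CPM in WT mice (-0.18). All of these turned sign under spike-in scaling, which put the median of all genes at 0.19 log2 units. The window as a whole took 0.905 ± 0.037% of endogenous reads in BERKO and 0.992 ± 0.030% in WT mice. Per mouse it took 0.863% to 0.964% in BERKO and 0.96% to 1.03% in WT mice, so that BERKO replicate 6 alone reached the lowest WT mice.

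Grouped by function, 0 members of any list passed the threshold, and the counts at an unadjusted p under 0.05 are read beside the 5.27% and 4.64% of all genes that were higher and lower in BERKO. The lists were drawn up with results of these data known. Of 32 window genes of transcription, chromatin and RNA, 22 were tested, of which 4 were lower in BERKO at an unadjusted p under 0.05 (Snapc1, Fcf1, Erh, Eif2s1) and 0 were higher, with a median log2 change of -0.12. Of 22 mitochondrial and metabolic genes, 16 were tested, of which Dhrs7 was lower in BERKO and 0 were higher, with a median of -0.23. Next in p there were Exd2, an exonuclease (41.4 ± 14.4 CPM in BERKO and 58.4 ± 15.1 CPM in WT mice), Aldh6a1, an enzyme of valine breakdown (150.9 ± 45.04 CPM in BERKO and 117.6 ± 30.3 CPM in WT mice), and Isca2, an iron-sulfur cluster assembly protein (76.8 ± 15.8 CPM in BERKO and 99.7 ± 24.6 CPM in WT mice). Of 19 genes of membrane traffic and lysosome, 13 were tested, of which Rab15 and Rtn1 were higher in BERKO and 0 lower (median -0.063). Of 21 synaptic and signalling genes, 14 were tested, of which Ppp2r5e was higher and Mdga2 lower (median 0.10). Of 12 cytoskeletal and matrix genes, 2 were tested, Syne2 and Mpp5, and neither had an unadjusted p under 0.05.

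Feature by feature, 0 of the 123 tested window features passed the threshold, beside 0.114% of all 13128 tested features in edgeR, while DESeq2 called 3 of the 87 to which it gave an adjusted p (3.45%, beside 1.17% of all) and limma-voom 0 of 123, beside 0.0686% of all. At an unadjusted p under 0.05 there were 15 (12.2%), beside 11.6% of all: 4 higher in BERKO (3.25%, beside 5.63%) and 11 lower (8.94%, beside 5.93%). Under spike-in scaling 8 were higher (6.5%, beside 12.6% of all) and 4 lower (3.25%, beside 1.16%). The filter kept 4 of the 123 features with at most 1 BERKO mouse at its limit of 5.90 CPM, among them those of Fntb and 3110056K07Rik, which are 2 of the 11 lower ones; it kept 2 with at most 1 WT mouse at that limit. Of the higher ones, the Dbpht2 feature reached it in 5 of 5 BERKO and 3 of 6 WT mice. The Sptb feature at 77682917 reached it in 5 of 5 BERKO and 4 of 6 WT mice. Whether these features were tested depended on the genotype in which they are high. The groups did not overlap for 3 features (2.44%, beside 1.83%), the leading features of Snapc1, Erh and Fcf1. The smallest adjusted p was that of the Dhrs7 5′ UTR feature, 0.0904, at 55.1 ± 11.6 CPM in BERKO and 115.9 ± 34.5 CPM in WT mice. Of the 13 genes above, Snapc1, Dhrs7, Dbpht2, Fcf1, Erh and 3110056K07Rik each drew at least 94.55% of their reads from 1 feature. Mdga2, Sptb, Ppp2r5e and Rab15 drew less than 50% from any.

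Features at gene starts and features inside genes differed in sign. Of the 76 tested window features in a 5′ UTR or upstream, 60 were negative (78.9%), with a median log2 change of -0.26. Of the 34 in a CDS or 3′ UTR, 26 were positive, with a median of 0.48. The same split ran through all tested features: 67.8% of 7072 start features were negative, with a median of -0.17, and 3604 of 4695 CDS and 3′ UTR features were positive, with a median of 0.38. In the window, CDS and 3′ UTR features took 12.2% to 15.6% of the reads in BERKO mice and 9.40% to 11.6% in WT mice. Every BERKO mouse lay above every WT mouse. Over all endogenous reads these features took 16.2% to 19.2% in BERKO and 11.3% to 16.8% in WT mice. The higher Sptb came from 3′ UTR features and the lower Snapc1, Dhrs7, Fntb, Fcf1 and Erh from start features. The higher Dbpht2, Ppp2r5e, Rab15 and Rtn1 had start features in the lead, which does not place their rise there. The leading 5′ UTR features of Dbpht2 and Rtn1 changed by 2.09 and 0.33 log2 units. That of Rab15 changed by 0.20 (unadjusted p = 0.559, edgeR) and its 3′ UTR feature by 0.55. The leading feature of Ppp2r5e held 35.29% of its reads and was not tested. What sets the balance of start and inner features, RNA quality included, was not tested.

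**Figure D3:**
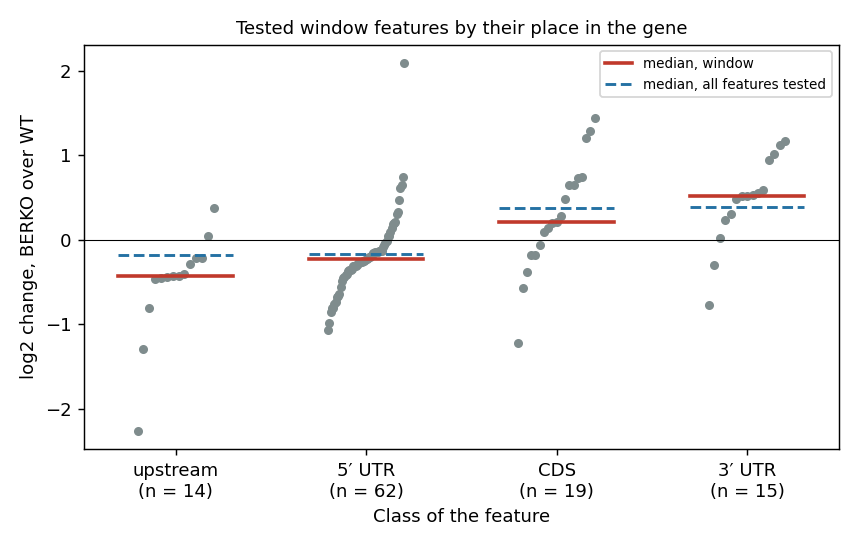
Each point is the log2 change (BERKO over WT, vertical axis) of a tested window feature, grouped by its place in the gene from upstream to 3′ UTR (horizontal axis), with the medians of the window (solid) and of all tested features (dashed). The window medians run from -0.43 upstream and -0.23 in the 5′ UTR to 0.22 in the CDS and 0.52 in the 3′ UTR.

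**Figure D4:**
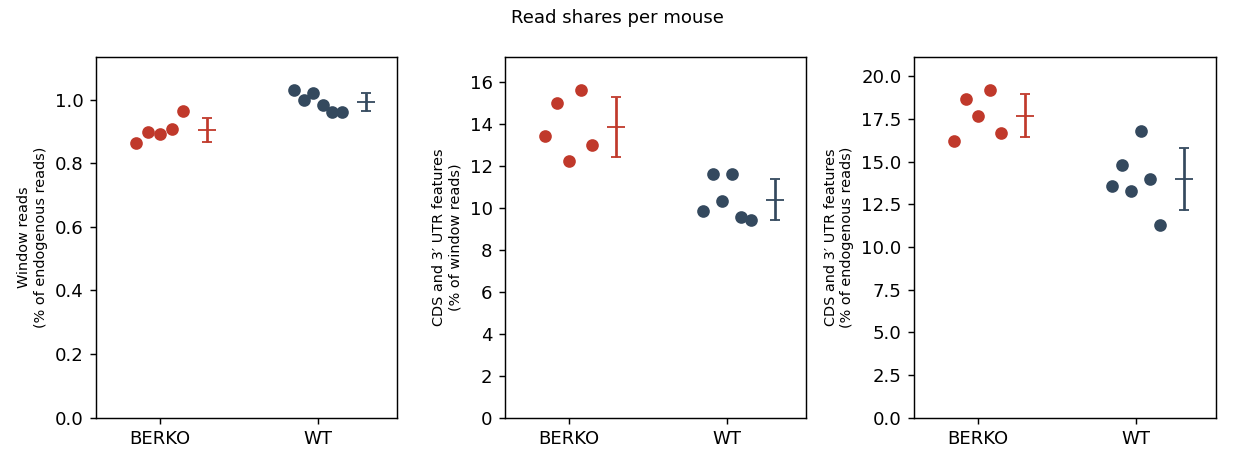
Shares of reads in percent (vertical axes, from 0) per mouse, BERKO left and WT right, with the mean ± SD beside the points: the window among endogenous reads, CDS and 3′ UTR features among window reads, and the same features among all endogenous reads. BERKO mice lie above all WT mice in the middle panel (12.2% to 15.6% in BERKO, 9.40% to 11.6% in WT mice), and the groups overlap in the other panels.

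The change of a feature relative to its gene was tested for 54 window features of genes with 2 or more tested features. None passed the threshold in edgeR's diffSpliceDGE (0.0296% of 6762 features did), and 2 had an unadjusted p under 0.05, beside 5.55% of all. These were CDS features of Rbm25, a splicing regulator, and of Jkamp, a membrane protein that anchors the kinase JNK. The Rbm25 feature at 85005005 had 8.56, 11.6, 10.2, 30.5 and 105.7 CPM in BERKO replicates 2 to 6 and 4.67 to 27.5 CPM in WT mice, so its mean followed BERKO replicate 6. Relative to its gene it differed by 0.97 ± 0.41 log2 units. The Jkamp feature had 17.1, 14.5, 4.69, 5.26 and 9.61 CPM in BERKO replicates 2 to 6 and 0.0 to 13.3 CPM in WT mice, 1.03 ± 0.45 log2 units relative to its gene. Both are uncertain: stretches of at least 80 bases of Rbm25 at 95% identity or more occur in 205 genes at other loci, and Jkamp overlaps Ccdc175 over 124 bases.

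Each biopsy side was also tested alone. On the right, 0 of 82 window genes passed in edgeR, beside 0.065% of all, and 13 had an unadjusted p under 0.05, beside 8.25% of all. Dhrs7 and Snapc1 had right-side log2 changes of -1.17 and -1.29, and Fntb -3.33. The right biopsies had 54.0 ± 5.44 CPM of Dhrs7 in BERKO and 121.3 ± 39.8 CPM in WT mice, and 31.1 ± 9.09 CPM of Snapc1 in BERKO and 75.7 ± 21.7 CPM in WT mice. On the left, 0 of 70 passed in edgeR, beside 0.0% of all. There, 4 had an unadjusted p under 0.05 (edgeR), beside 6.76% of all: Erh, Dbpht2, Klhdc2 and Aldh6a1. The left biopsies include those of WT replicates 1 and 2 that stood apart and the 1-lane library of BERKO replicate 5 (239058 gene reads). The counts of the sides are therefore not directly comparable. Erh had 392.3 ± 57.1 CPM in left BERKO biopsies and 582.1 ± 41.3 CPM in left WT biopsies, with no overlap (314.6 to 458.1 CPM in BERKO, 523.3 to 629.7 CPM in WT). Klhdc2, a substrate receptor of a cullin ubiquitin ligase, had 19.3 ± 6.91 CPM in left BERKO biopsies and 43.3 ± 19.9 CPM in left WT biopsies. It overlaps Nemf over 166 bases, and Aldh6a1 overlaps Bbof1 over 818 bases. In each of these pairs the leading features lie on opposite strands.

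Whether the genotype difference itself differed between the sides was tested in 1 model with the mouse as a block. Of 90 window genes, 0 passed in edgeR, beside 0.0% of all 8308, and 4 had an unadjusted p under 0.05, beside 3.26% of all. Dnaaf2, an assembly factor of ciliary dynein arms, had 18.98 ± 17.0 CPM in right BERKO biopsies and 42.0 ± 13.1 CPM in right WT biopsies, and 36.5 ± 17.9 CPM in left BERKO biopsies and 27.0 ± 16.0 CPM in left WT biopsies. The difference of its log2 changes, right minus left, was -1.91 (unadjusted p = 0.0180, edgeR). Its counts are uncertain, since it shares 757 bases with the overlapping gene Gm49383 and 729 bases are 95.473% identical to Gm47324. Tmx1, a thiol oxidoreductase of the endoplasmic reticulum, differed by -0.80, Vti1b, a SNARE protein, by 0.61, and Trim9, a neuronal ubiquitin ligase, by 1.27. Vti1b overlaps Arg2 over 285 bases and Trim9 overlaps Gm32151 over 153 bases. Of the 70 genes tested on both sides, 46 had the same sign on both, 35 negative and 11 positive. Most window genes tested were negative on each side (54 of 82 on the right, 47 of 70 on the left), which by itself gives some agreement. The share over all genes was not computed. Snapc1 and Dbpht2 had these values, right first: -1.29 and -1.03 for Snapc1, 1.87 and 1.80 for Dbpht2; neither passed the adjustment on either side.

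**Figure D5:**
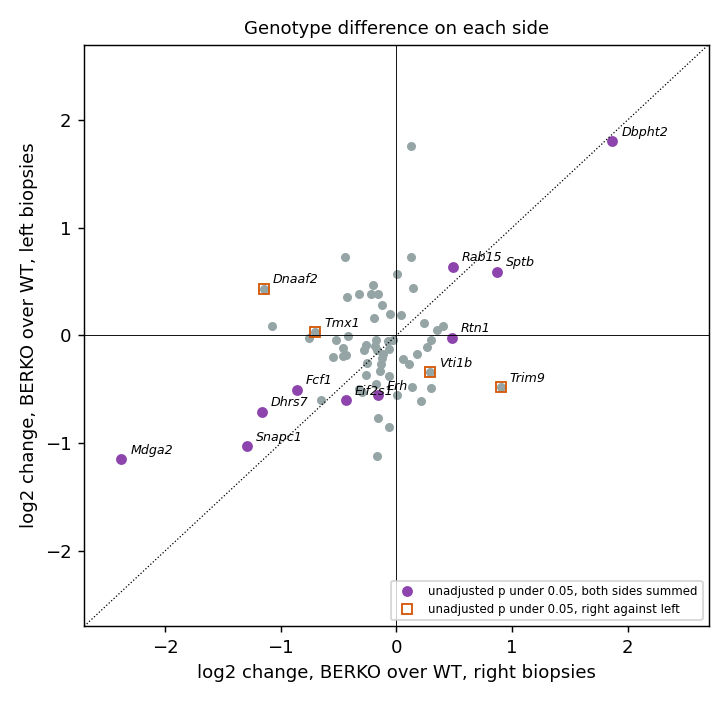
Log2 changes (BERKO over WT) in right biopsies (horizontal axis) are plotted against those in left biopsies (vertical axis) for the 70 window genes tested on both sides. Mdga2, Snapc1, Dhrs7 and Fcf1 are negative and Dbpht2, Sptb and Rab15 positive on both sides, while the squares mark the 4 genes with an unadjusted p under 0.05 for the difference between the sides.

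Of the 1179 counted features, 1056 were under the filter and could not be tested, and 319 of these had no read in any mouse. Among them, 3 had reads in at least 5 of 6 WT mice and in no BERKO mouse, 0.284% of the untested window features beside 0.285% of all untested features. None had reads in at least 4 BERKO mice and no WT mouse, where 0.102% of all untested features did; the WT libraries were the deeper ones. The one nearest to Esr2, unannotated, lies at 76697429 on the plus strand, 0.55 Mb from Esr2. It had 0 reads in every BERKO mouse and 2, 3, 3, 11, 8 and 1 reads in WT replicates 1 to 6, at least 4.998-fold lower in BERKO against a floor of 3 reads over all BERKO mice. It lies beside the leading feature of Ppp2r5e at 76697210, on the other strand. A second unannotated feature at 73897646 had 0 reads in BERKO mice and 3 to 17 in 5 WT mice, and a 3′ UTR feature of Tmed10, a cargo receptor of early secretion, had 0 reads in BERKO mice and 1 to 9 in 5 WT mice. These features were chosen after their values were seen.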

How the data were processed

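STRT 5′-end reads of M1 biopsies were counted by the authors, who deposited whole-number read counts per feature and an annotation in mm9 coordinates; the submitters' processing notes name Bowtie and TopHat2 2.0.12. Read filters and strand rules are not stated in the labels. The members and gene lists were chosen with earlier results of these data known, and the named genes followed a rule: Esr2, the 6 nearest tested genes per side, then order of p to 20, the 10 leading features, 3 per side and for the interaction, 3 per list, the 5 of highest level and 3 for feature use.

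Column names gave side, genotype and a last digit, read as the mouse number. All 64 columns were used. Lanes were summed (chi-square per gene between lanes 0.772 to 0.948, between biopsies of a group at least 4.69). Spike-in and ribosomal repeat features were left out. Features with a single symbol were summed to genes, and those without held 4.88% of endogenous reads. The mouse was the replicate, with both sides summed; whether mice came from separate litters is not stated. The labels name the mouse of each right and left biopsy, and columns were tied to mice by that digit, so the mouse was the block in the test of sides. The deviations of a mouse's biopsies were correlated at 0.363 in WT replicate 1 and at -0.129 to 0.122 in the others.

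Tests used edgeR 4.0.16 in R 4.3.3 (quasi-likelihood, two-sided, TMM, default filter, Benjamini-Hochberg over all genes or features tested, threshold 0.05) and diffSpliceDGE. They were run on simulated data, where diffSpliceDGE recovered fewer of the changes made than the other tests. The test of sides was given larger changes, so the recoveries are not alike. The log2 change of diffSpliceDGE is relative to the gene and by construction smaller than the change made in the feature. The simulated spread between mice was below that of the data. CPM are reads scaled by the TMM library size. SE is the log2 change over the square root of F. The biological coefficient of variation was 36.68% for genes. Alternatives used DESeq2 1.42.0, limma 3.58.1 and spike-in scaling, among others. Near-identical copies (80 bases or more at 95% or more) of the 38 named genes were sought with blastn 2.17.0 in GENCODE transcripts. Promoters are from RefSeq, GRCm38.p6.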

Additional observations from a re-analysis of the deposited data

Results flagged for a closer look

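Of 76 groups of named gene levels checked, 4 held a mouse far from the others of its genotype; chance flags about 1 in 20. Syne2 had 0.0 CPM in BERKO replicate 6, against 6.97 to 8.47 CPM in the other BERKO mice. Fcf1 had 80.2 CPM in WT replicate 2, against 36.3 to 50.8 CPM in the other WT mice. Aldh6a1 had 178.0 CPM in WT replicate 3, against 94.0 to 112.7 CPM in the other WT mice. Esr2 had 1.07 CPM in WT replicate 1, from 3 reads, and 0 in the other WT mice.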

How the results depend on the processing

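The count of window genes past the threshold was 0 in edgeR. It was 5 of 78 in DESeq2 (Snapc1, Dhrs7, Mdga2, Fntb, Dbpht2), beside 34 of 7621 over all genes. Of these 5, Fntb was kept by the expression filter through the WT mice and Dbpht2 through the BERKO mice, while Mdga2 leaned on the WT mice. With no filter it was 2 of 156 (Snapc1, Dhrs7), beside 14 of 14126. Spike-in scaling gave 1 of 96 (Dbpht2), beside 45 of 9025. Without the 3 WT libraries apart it was 1 of 89 (Dhrs7), beside 6 of 8436. Thinned depth gave 1 of 82 (Snapc1), beside 8 of 7737, and the replicate block 1 of 96 (Dhrs7), beside 9 of 9025. DESeq2 gave no adjusted p for 18 of the 96. Leaving out each mouse gave 0 to 1 (Dhrs7 without WT replicate 1, Snapc1 without WT replicate 4), beside 1 to 18 over all genes. Features gave 3 of 860 with no filter, beside 139 of 83369 over all features, and 3 of 87 in DESeq2, beside 112 of 9556. Spike-in scaling gave 1 of 123, beside 40 of 13128. Without the 3 WT libraries it was 1 of 108, beside 14 of 11594. The replicate block gave 1 of 123, beside 16 of 13128, and the mouse as a random effect 1 of 74, beside 43 of 8028. On leaving out each mouse it was 0 to 1, beside 8 to 47 over all features. The right side gave 2 of 154 with no filter, beside 17 of 13833 over all genes, and 1 of 78 without the 3 WT libraries, beside 6 of 7290. On leaving out each mouse it gave 0 to 1, beside 0 to 6 over all genes. The left side, the difference between sides (also with no replicate block) and feature use stayed at 0 in every alternative run. The 13 of 96 genes of unadjusted p under 0.05 stood beside 895 of 9025 over all genes. With no filter they became 24 of 156, beside 1622 of 14126. With promoter features only they became 8 of 79, beside 609 of 7014. Within 2 Mb they were 5 of 14, among them Fntb, Dbpht2 and Ppp2r5e, whose testing depended on the genotype in which they are high. Fewer or more genes enter by construction. The median log2 change of -0.12 was 0.078 under spike-in scaling, which put the median of all genes at 0.19; relative to all genes it was -0.11 in both.

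Signs turned under spike-in scaling for Rps29 (0.10), Rpl36al (0.021), Jkamp (0.017), 1700086L19Rik (0.042), Mthfd1 (0.037), Akap5 (0.024), Mpp5 (0.12) and Atp6v1d (0.070). They also turned for Syt16 (-0.060 with a random effect, and -0.061 to 0.42 on leaving out each mouse), 1700086L19Rik (0.28 without WT replicate 2, 0.087 without BERKO replicate 6, range -0.38 to 0.28) and Rbm25 (-0.057 from promoter features, -0.041 with a random effect, -0.049 without BERKO replicate 6, range -0.049 to 0.26). The cause was not tested. The deviations of BERKO and WT mice of the same number were correlated at -0.033 to 0.055. Those of the right and left biopsies of a mouse were correlated at -0.129 to 0.122 outside WT replicate 1. This measure therefore cannot tell whether the numbers pair mice, and the block is given as an alternative only. Genes of a few reads per mouse, such as Ppp2r5e and Fntb, are limited by depth.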
